A study of Homo sapiens with 12 samples.

Results

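The ATP-binding cassette (ABC) family was taken from the gene count table by symbol: every entry whose symbol begins with ABC, a class letter from A to G and a number, plus CFTR. TAP genes and entries described as pseudogenes were left out. The rule found 48 of the 24528 genes in the table. Of these, 46 are ABC family genes and 2 are antisense RNA genes, ABCC5-AS1 and ABCA9-AS1, which had at most 1 and 11 counts in any library and are not counted as members below. The 46 members comprise 12 genes of class A, 9 of class B, 12 of class C with CFTR, 4 of class D, 1 of class E, 3 of class F and 5 of class G. A low-count filter left 36 members for testing, so 10 were measured but not tested.

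ABC proteins share a nucleotide-binding domain that hydrolyses ATP. Most members couple ATP to the movement of a substrate across a membrane: sterols and phospholipids in class A and in several class G proteins, drugs and conjugated organic anions in classes B, C and G, fatty acyl-CoA in class D. Classes E and F have no membrane-spanning domain and act on ribosomes and translation. In pancreatic carcinoma the family is best known for the drug efflux pumps and for cholesterol export.

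RNA was sequenced from MIA PaCa-2 cells, an established human pancreatic carcinoma line, 72 hours after infection with lentiviruses that carry short hairpin RNAs (shRNAs). The groups were the Msi1 knockdown (shRNA against Musashi1, virus marked by GFP), the Msi2 knockdown (shRNA against Musashi2, virus marked by Tomato Red), the double knockdown (both viruses) and control (scrambled shRNA), with 3 libraries each. Knockdown cells were sorted on GFP, on Tomato Red or as double positives. The control's tag and gate, and the number of shRNAs per gene, are not stated in the labels. Every group is the same line in serum-containing medium, so nothing here speaks for another line or for tumour tissue. Musashi proteins bind mRNAs and can alter how long they last and how well they are translated.

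Library totals, in units of 1e6 estimated counts, were 26.8 to 38.9 for the Msi1 knockdown, 39.7 to 53.01 for the Msi2 knockdown, 39.9 to 56.1 for the double knockdown and 10.9 to 35.04 for control. Levels are given as CPM, counts per 1e6 after scaling between libraries (TMM). Before that scaling a count of 3 is worth 0.0535 to 0.274 counts per 1e6, which limits what a count of 0 can show and covers counting error only. Changes are log2 values ± standard error from edgeR's quasi-likelihood test, called where the Benjamini-Hochberg adjusted p over 15021 tested genes was below 0.05. MSI1 averaged 1.84 ± 0.192 CPM in Msi1 knockdown cells, 6.14 ± 0.819 in Msi2 knockdown cells, 1.71 ± 0.284 in double knockdown cells and 4.53 ± 0.399 in control (SD, n = 3). MSI2 averaged 53.98 ± 2.28 CPM in Msi1 knockdown cells, 14.97 ± 2.36 in Msi2 knockdown cells, 11.8 ± 0.619 in double knockdown cells and 82.7 ± 3.09 in control, so MSI2 was also below control where Msi1 was targeted, by -0.61 ± 0.081 (adjusted p = 6.82e-06). The labels do not say that replicates were separate cultures, so p-values reflect only how far these libraries spread, which may be technical. An exact permutation of 3 libraries against 3 cannot go below p = 0.1. Within each group every pair of libraries differed by more than sampling noise.

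Markers of the labelled carcinoma line were mixed. Of 5 epithelial markers, KRT8 reached 1080 to 1648 CPM, while EPCAM and CDH1 stayed at or under 1.015 CPM. Of 4 mesenchymal markers, VIM reached 4842 to 6034 CPM, while FN1 stayed at or under 3.07 CPM and CDH2 at or under 0.11 CPM. The 5 pancreatic ductal markers were near 0, with summed levels of 0.196 to 0.788 CPM over all libraries. Summed levels of 6 pancreatic acinar markers were 0 to 0.218 CPM over all libraries, with PNLIP at 0 throughout, and summed levels of 5 hepatocyte and enterocyte markers, from cells rich in ABC transporters, were 0.0561 to 0.449 CPM. Summed levels of the 5 epithelial markers were 2497 to 2859 CPM in Msi1 knockdown cells, 2324 to 2621 in Msi2 knockdown cells, 3023 to 3441 in double knockdown cells and 2318 to 2482 in control. In double knockdown cells 3 of the 4 tested rose (75%, beside 26.6% of all tested genes). Summed levels of 6 blood markers were 36.4 to 43.2 CPM in Msi1 knockdown cells, 46.8 to 47.1 in Msi2 knockdown cells, 47.9 to 52.02 in double knockdown cells and 16.99 to 19.6 in control, mainly CD68. Summed levels of 5 endothelial markers, mainly CDH5, were 27.5 to 34.5 CPM in Msi1 knockdown cells, 13.1 to 13.6 in Msi2 knockdown cells, 20.4 to 22.9 in double knockdown cells and 7.32 to 8.45 in control. The part of these shifts in the ABC results was not tested.

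Summed over the 46 members, the family made up 1949.5 to 2151 CPM in Msi1 knockdown cells, 1867 to 2035 in Msi2 knockdown cells, 1765 to 1804 in double knockdown cells and 1774 to 1948 in control. The control range overlapped those of the Msi2 and the double knockdown and lay just below that of the Msi1 knockdown. Per kilobase of the longest transcript, the level of ABCE1, the factor that splits ribosomes after termination, was highest at 48.8 ± 6.73 CPM per kilobase (SD over the 12 libraries). It was followed by ABCF2 at 37.3 ± 3.67, ABCF1 at 31.7 ± 3.76, ABCD3 at 28.9 ± 2.33 and ABCA10 at 27.1 ± 2.52 CPM per kilobase. The spreads of ABCF2 and ABCF1 overlapped, and so did those of ABCF1, ABCD3, ABCA10 and the next member, ABCA3, at 26.6 ± 3.45. Such spreads also hold differences between groups, so they do not measure how sure the order is, which was not tested. These ranks pool all groups, and the order differed between them: ABCC2, at 31.9 CPM per kilobase, was above ABCF1, ABCD3 and ABCA10 in Msi1 knockdown cells, and ABCA3, at 30.9 CPM per kilobase, was above ABCD3 and ABCA10 in Msi2 knockdown cells. ABCE1 and ABCF2 were the highest 2 in every group.

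**Figure D1:**
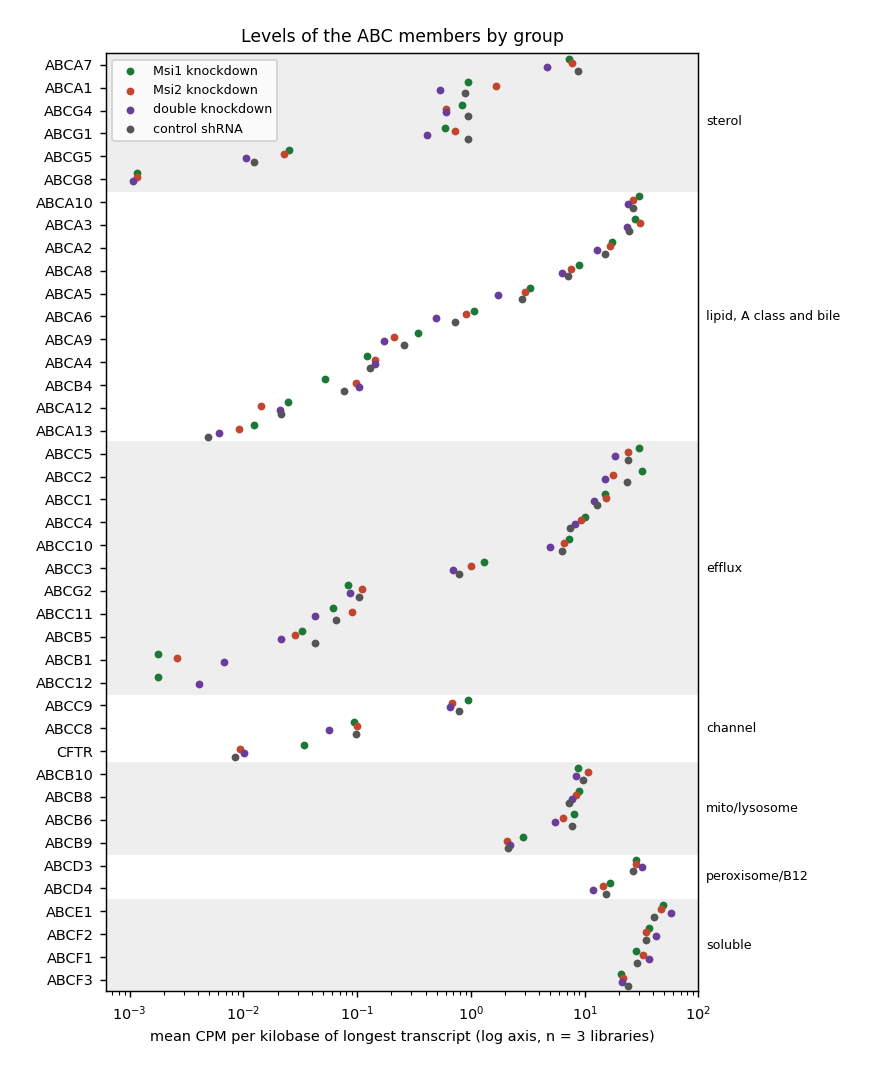
Mean level of each of 41 ABC members in each group, in CPM per kilobase of longest transcript on a log axis (points, n = 3 libraries a group), with members grouped by role and sorted within it. Levels span more than 4 powers of 10, from ABCG8 to ABCE1. A group mean of 0 cannot be drawn on a log axis, and ABCB11, ABCC6 and ABCD2 are left out because they were at 0 in every library. Some other members are also not drawn.

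Some of the best-known members were at the limit of detection. ABCB1 (P-glycoprotein, the classical multidrug pump) had 0 to 3 counts per library and was at 0 in 8 of the 12. ABCG2 (breast cancer resistance protein) had 0.329, 0.428 and 0.363 CPM in Msi1 knockdown cells and 0.427, 0.392 and 0.665 CPM in Msi2 knockdown cells. Its double knockdown libraries had 0.395, 0.207 and 0.5701 CPM, against 0.448, 0.394 and 0.539 CPM in control. Those ranges overlapped, and its log2 changes against control of -0.24 ± 0.39 (adjusted p = 0.668) in the Msi1, 0.17 ± 0.36 (adjusted p = 0.775) in the Msi2 and -0.20 ± 0.37 (adjusted p = 0.687) in double knockdown cells did not pass. CFTR, the chloride channel of ductal epithelium, had 7 counts in each Msi1 knockdown library, 2 to 3 in Msi2 knockdown cells, 1 to 6 in double knockdown cells and 0 to 2 in control, and did not pass the filter. ABCB11, ABCC6 and ABCD2 were listed at 0 in all 12 libraries. ABCC6 is nearly identical to pseudogene copies, one of which (ABCC6P2) had 9 to 32 counts, and whether reads were divided between them was not tested. The remaining untested members were ABCA13 (0 to 12 counts), ABCB5 (2 to 13), ABCC12 (0 to 2), ABCG5 (0 to 5) and ABCG8 (0 to 1).

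Against control, 10 members rose and 2 fell in Msi1 knockdown cells, 6 rose and 5 fell in Msi2 knockdown cells, and 5 rose and 17 fell in double knockdown cells. In the Msi1 knockdown, 27.8% of the tested members rose and 5.56% fell, where 18.5% of all tested genes rose and 20.9% fell. In the Msi2 knockdown, 16.7% of the members rose and 13.9% fell, where 16.7% of all genes rose and 13.6% fell, so the shares were at the background. In the double knockdown, 13.9% of the members rose and 47.2% fell, where 26.6% of all genes rose and 25.3% fell. The median log2 change over the 36 members was 0.14 in Msi1 knockdown cells (-0.0018 over all genes), 0.075 in Msi2 knockdown cells (-0.0021) and -0.20 in double knockdown cells (-0.015). The 3 comparisons share the control libraries and are therefore not independent. These are bulk samples, in which fewer cells of a kind and less RNA per cell cannot be told apart. The number of members called in Msi2 knockdown cells was 11, but 6 without control library 1 and 7 without Msi2 knockdown library 1.

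**Figure D2:**
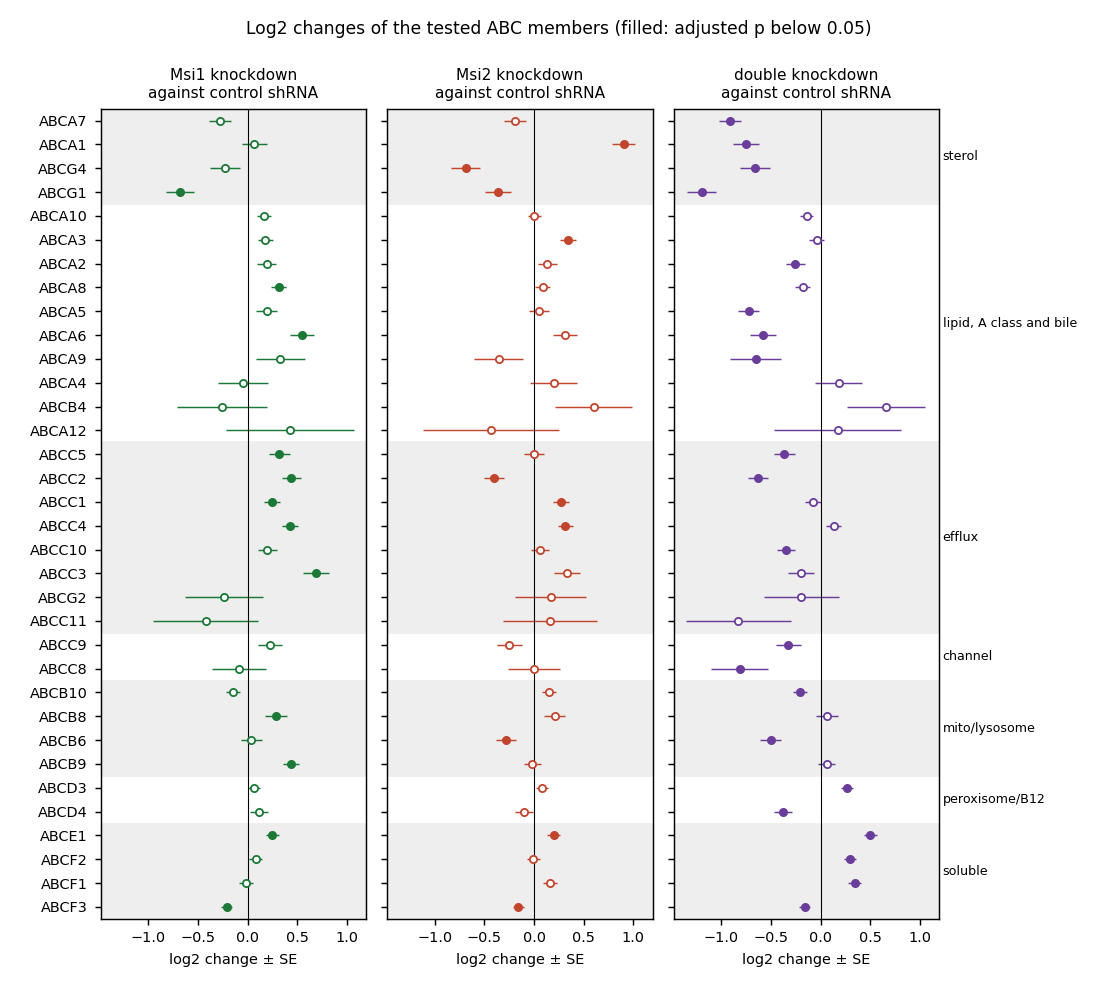
Log2 change ± SE of 34 tested members in each knockdown against control (3 panels, n = 3 libraries a group), by role, with filled points where the adjusted p was below 0.05. In the double knockdown all 4 sterol exporters lie left of 0 and ABCE1, ABCF1, ABCF2 and ABCD3 lie right of it, while in Msi1 knockdown cells most efflux pumps lie right of 0.

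Transcript length moved with the double knockdown. Each gene's log2 level, as a deviation from its own mean over all libraries, was regressed on log2 length over well-measured genes. The slope was -0.146, -0.087 and -0.075 in the 3 double knockdown libraries and -0.025 to 0.079 in the other 9. These slopes are relative to the average library and do not describe how level itself depends on length. The tested ABC members have long transcripts, with a median of 5761 bases against 3535 over all tested genes. With offsets for length, fitted per library, 6 members were called higher and 14 lower in double knockdown cells: ABCC4 was added to the rises at 0.19 (adjusted p = 0.038), and ABCA2 (adjusted p = 0.139), ABCA9 (adjusted p = 0.0753) and ABCC9 (adjusted p = 0.122) were no longer called. The same offsets gave 12 higher and 2 lower in Msi1 knockdown cells, and 6 higher and 4 lower in Msi2 knockdown cells. The shares of all tested genes with these offsets are not given here. Whether the members still differed from the background after this correction was therefore not tested.

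The sterol and phospholipid exporters comprise 6 members, of which 4 were tested, and all 4 fell in double knockdown cells, where 25.3% of all tested genes fell. Whether this or any other role below departed from the shares of all tested genes was not tested. ABCA1, which loads cholesterol and phospholipid onto apolipoprotein A-I, had 7.68, 10.5 and 11.6 CPM in Msi1 knockdown cells and 16.9, 19.1 and 16.8 CPM in Msi2 knockdown cells. Double knockdown libraries were at 5.08, 6.06 and 5.73 CPM and control libraries at 8.72, 10.3 and 9.26 CPM. The Msi2 knockdown libraries were all above control and the double knockdown libraries all below it, while the Msi1 knockdown overlapped control. On the log2 scale ABCA1 changed by 0.90 ± 0.12 (adjusted p = 1.17e-05) in Msi2 knockdown cells, a ratio to control of 1.87, and by -0.75 ± 0.13 (adjusted p = 8.72e-05) in double knockdown cells, a ratio of 0.595. In the Msi1 knockdown its log2 change of 0.067 ± 0.13 did not pass (adjusted p = 0.706), and without Msi1 knockdown library 3 it was -0.033. ABCG1, which passes sterol on to high-density lipoprotein, had 2.11, 2.09 and 1.92 CPM in Msi1 knockdown cells and 2.33, 2.69 and 2.62 CPM in Msi2 knockdown cells. Levels in double knockdown cells were 1.41, 1.34 and 1.55 CPM, and those in control 3.503, 3.09 and 3.24 CPM. All 9 knockdown libraries were below all 3 control libraries. ABCG1 fell by a log2 change of -0.68 ± 0.14 (adjusted p = 0.000705) in Msi1 knockdown cells and -1.20 ± 0.14 (adjusted p = 1.44e-06) in double knockdown cells, where its ratio to control of 0.436 made it the only member past a 2-fold change in any comparison with control. ABCG1 also fell in Msi2 knockdown cells by -0.36 ± 0.13 (adjusted p = 0.0441), a call that ended in 14 of the alternatives tried, among them DESeq2 (adjusted p = 0.103), libraries thinned to 1 depth (0.36), and the fits without control library 1 (0.201), control library 3 (0.0665), or Msi2 knockdown library 1 (0.14), 2 (0.0529) or 3 (0.0708).

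ABCA7, a close relative of ABCA1, had 44.1, 53.3 and 52.7 CPM in Msi1 knockdown cells and 52.02, 61.9 and 45.1 CPM in Msi2 knockdown cells. With both shRNAs it had 32.1, 29.9 and 34.2 CPM, and with the scrambled one 56.7, 68.9 and 54.8 CPM. The double knockdown libraries were the lowest 3, the Msi1 knockdown libraries were just below control, and the Msi2 knockdown overlapped it. ABCA7 fell by -0.92 ± 0.11 (adjusted p = 6.35e-06) in double knockdown cells, and its changes in Msi1 knockdown cells (-0.27 ± 0.11 (adjusted p = 0.0625)) and the Msi2 knockdown (-0.19 ± 0.11 (adjusted p = 0.223)) did not pass. ABCG4, a sterol exporter known mainly from brain, had 3.04, 3.02 and 3.56 CPM in Msi1 knockdown cells and 2.56, 2.44 and 1.96 CPM in Msi2 knockdown cells. In double knockdown cells it had 2.501, 2.21 and 2.33 CPM, against 4.34, 3.45 and 3.06 CPM in control cells. It fell in Msi2 knockdown cells by -0.69 ± 0.15 (adjusted p = 0.00163) and in double knockdown cells by -0.66 ± 0.15 (adjusted p = 0.00113), and both calls ended when libraries were thinned to 1 depth (adjusted p = 0.275 and 0.0589). Summed over its 6 members, this group was at 65.3 ± 7.17 CPM in Msi1 knockdown cells, 75.5 ± 9.98 in Msi2 knockdown cells, 41.5 ± 2.18 in double knockdown cells and 76.5 ± 8.12 in control (SD, n = 3). ABCG5 and ABCG8, which pair as the sterol pump of liver and gut, were too low to test.

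The promoter sequence of ABCA1 is shown because ABCA1 is the member whose single and double knockdown changes were most opposed. It gives the 250 bases before the RefSeq start, 5′ to 3′ on the gene's strand, from GRCh38.p14 (chr9:104928156-104928405, minus strand), and capitals mark an E-box (CACGTG), GC boxes (GGGCGG or its reverse complement) and a TATA box (TATAAA).
ABCA1: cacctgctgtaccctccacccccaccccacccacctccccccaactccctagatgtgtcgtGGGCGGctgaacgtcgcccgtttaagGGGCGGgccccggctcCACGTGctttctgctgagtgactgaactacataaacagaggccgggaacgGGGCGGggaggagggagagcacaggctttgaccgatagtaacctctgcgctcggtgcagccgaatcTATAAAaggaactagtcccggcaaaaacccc
The E-box begins 147 bases before the start, the GC boxes 189, 163 and 97 bases before it, and the TATA box 31 bases before it. Of 27305 RefSeq promoters of this length, 6.49% hold the E-box on either strand, 42.3% the GC box and 11.1% the TATA box. Of the 46 members, 36 matched a promoter in the table, and 4, 18 and 5 of them hold these motifs. The exact letters AGGTCA, a nuclear receptor core motif, were found in 2 of the 36 members (5.56%), against 12.1% of all promoters. This window of ABCA1 does not hold these exact letters on either strand. Variant forms of the motif were not searched. Read on the opposite strand, the printed window holds AGGTTA and, shortly after it, CGGTCA, both close to AGGTCA. The search for exact letters passed over both, and binding of a receptor there was not tested. Matches are descriptions of letters and not binding sites.

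The other class A and bile lipid transporters comprise 12 members, of which 10 were tested: 2 rose in Msi1 knockdown cells, 1 rose in Msi2 knockdown cells, and 4 fell and none rose in double knockdown cells. Of all tested genes, 18.5% rose in the Msi1 and 16.7% in the Msi2 knockdown, and 25.3% fell and 26.6% rose in the double knockdown. ABCA5, a lysosomal and endosomal protein, had 23.8, 28.6 and 28.6 CPM in Msi1 knockdown cells and 22.6, 27.96 and 22.7 CPM in Msi2 knockdown cells. Its double knockdown libraries had 13.01, 14.3 and 15.6 CPM, against 23.9, 25.8 and 20.04 CPM in control. The 3 double knockdown libraries were below all the others, and the single knockdowns overlapped control. ABCA5 fell by -0.73 ± 0.11 (adjusted p = 1.48e-05) in double knockdown cells. ABCA6 had 8.17, 8.89 and 9.08 CPM in Msi1 knockdown cells and 6.83, 8.34 and 6.94 CPM in Msi2 knockdown cells. Double knockdown libraries were at 3.197, 4.401 and 4.43 CPM and control libraries at 5.802, 6.21 and 5.75 CPM. It was above control in every single-knockdown library and below control in every double-knockdown library. The rise was 0.55 ± 0.12 (adjusted p = 0.00139) in Msi1 knockdown cells, where thinning to 1 depth gave 0.36 (adjusted p = 0.077), and the fall was -0.58 ± 0.13 (adjusted p = 0.000981) in double knockdown cells, where thinning gave -0.88 (adjusted p = 0.000423). Its log2 change of 0.31 ± 0.12 in Msi2 knockdown cells did not pass (adjusted p = 0.0579).

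ABCA3, which moves surfactant phospholipids into lamellar bodies in lung, had 159, 192 and 197 CPM in Msi1 knockdown cells and 200.03, 219 and 194 CPM in Msi2 knockdown cells. Levels in double knockdown cells were 159.8, 148 and 162 CPM, and those in control 156, 169 and 159 CPM. It rose in Msi2 knockdown cells by 0.34 ± 0.076 (adjusted p = 0.00205), with no overlap, and not in double knockdown cells, at -0.041 ± 0.076 (adjusted p = 0.675). ABCA8, a protein linked to cholesterol efflux, rose in Msi1 knockdown cells to 45.6, 56.1 and 53.02 CPM, against 39.7, 42.2 and 43.1 CPM in control, a log2 change of 0.31 ± 0.075 (adjusted p = 0.00254). ABCA9 fell in double knockdown cells by -0.65 ± 0.26 (adjusted p = 0.0399), at 1.204, 0.922 and 1.27 CPM against 2.38, 1.35 and 1.35 CPM in control. That fall rested on control library 1: without it the log2 change was -0.25 (adjusted p = 0.509), and the call also ended without double knockdown library 1 (0.0728) or 2 (0.127), under DESeq2 (0.0525) and with length offsets (0.0753). ABCA2, a lysosomal lipid transporter, also fell in double knockdown cells, by -0.26 ± 0.096 (adjusted p = 0.0317), and it was named after its values were seen.

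ABCA8, ABCA9, ABCA6, ABCA10 and ABCA5 are neighbours on human chromosome 17, between FAM20A and MAP2K6, in that order in RefSeq. Their levels differ widely: ABCA10 was at 27.1 ± 2.52 CPM per kilobase and ABCA9 at 0.247 ± 0.0879 (SD over 12 libraries). In the double knockdown, the log2 changes along this order were -0.18 ± 0.075, -0.65 ± 0.26, -0.58 ± 0.13, -0.14 ± 0.067 and -0.73 ± 0.11, of which those of ABCA9, ABCA6 and ABCA5 passed. The 5 genes arose by duplication, so reads that they share may have been split by the authors' quantification, and the kit's strand is not given, so antisense transcription such as ABCA9-AS1 could not be told apart. The promoter of ABCA5, the most strongly lowered of the 5 by log2 change, is shown beside that of its neighbour ABCA6, which moved in both directions. Both are 250 bases on the minus strand of GRCh38.p14 (chr17:69327134-69327383 and chr17:69141896-69142145), with a GC box of ABCA5, on the opposite strand, and a CCAAT box of ABCA6, also on the opposite strand, in capitals.
ABCA5: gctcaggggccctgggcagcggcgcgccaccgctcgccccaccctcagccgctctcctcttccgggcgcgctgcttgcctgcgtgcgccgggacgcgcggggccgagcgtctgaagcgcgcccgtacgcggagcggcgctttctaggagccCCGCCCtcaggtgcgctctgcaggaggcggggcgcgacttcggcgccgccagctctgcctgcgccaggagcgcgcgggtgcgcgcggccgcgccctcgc
ABCA6: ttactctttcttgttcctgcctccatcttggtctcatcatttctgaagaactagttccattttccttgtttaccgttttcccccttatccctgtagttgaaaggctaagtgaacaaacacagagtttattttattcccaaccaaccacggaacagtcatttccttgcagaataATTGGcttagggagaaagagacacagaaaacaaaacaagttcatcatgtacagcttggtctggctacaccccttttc
The windows differ in base composition, with 79.2% G and C for ABCA5 and 40.8% for ABCA6. The GC box of ABCA5 begins 99 bases and the CCAAT box of ABCA6 77 bases before the start, and CCAAT occurs in 33.0% of all promoters and in 7 of the 36 members.

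The drug, conjugate and organic anion efflux pumps comprise 12 members, of which 8 were tested. In the Msi1 knockdown 5 of the 8 rose and none fell, in Msi2 knockdown cells 2 rose and 1 fell, and in double knockdown cells none rose and 3 fell. Of all tested genes, 18.5% rose and 20.9% fell in the Msi1, 16.7% and 13.6% in the Msi2, and 26.6% and 25.3% in the double knockdown. ABCC2, the apical exporter of glucuronide and glutathione conjugates, had 164, 195 and 197 CPM in Msi1 knockdown cells and 103, 119.6 and 86.7 CPM in Msi2 knockdown cells. With both shRNAs it had 82.5, 89.001 and 92.4 CPM, and with the scrambled one 129, 150.2 and 129 CPM. All Msi1 knockdown libraries were above control, and all Msi2 and double knockdown libraries were below it. ABCC2 rose by 0.44 ± 0.10 (adjusted p = 0.00183) in Msi1 knockdown cells and fell by -0.40 ± 0.10 (adjusted p = 0.00517) in Msi2 knockdown cells and -0.63 ± 0.10 (adjusted p = 5.47e-05) in double knockdown cells. ABCC3, its basolateral counterpart, had 6.31, 7.83 and 8.03 CPM in Msi1 knockdown cells and 6.07, 6.397 and 4.81 CPM in Msi2 knockdown cells. In double knockdown cells it had 4.23, 3.82 and 3.86 CPM, against 4.71, 4.597 and 4.22 CPM in control cells. It rose in Msi1 knockdown cells by 0.69 ± 0.13 (adjusted p = 0.000263), the largest rise of that comparison, while its changes in Msi2 knockdown cells (0.33 ± 0.13, adjusted p = 0.0555) and the double knockdown (-0.20 ± 0.13, adjusted p = 0.224) did not pass.

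ABCC4, which exports cyclic nucleotides and prostanoids, had 55.2, 64.8 and 68.3 CPM in Msi1 knockdown cells and 53.2, 61.9 and 58.4 CPM in Msi2 knockdown cells. Its double knockdown libraries had 50.2, 51.4 and 51.3 CPM, against 45.3, 49.4 and 44.6 CPM in control. Every knockdown library was above every control library. ABCC4 rose by 0.43 ± 0.077 (adjusted p = 0.00019) in Msi1 knockdown cells and 0.31 ± 0.077 (adjusted p = 0.00405) in Msi2 knockdown cells, and its log2 change of 0.13 ± 0.077 in double knockdown cells did not pass (adjusted p = 0.165) except with length offsets, as given above. ABCC1, the glutathione-conjugate pump first described as multidrug resistance protein, had 87.7, 109 and 105 CPM in Msi1 knockdown cells and 101, 112 and 93.9 CPM in Msi2 knockdown cells. Double knockdown libraries were at 82.05, 78.4 and 80.5 CPM and control libraries at 81.4, 92.1 and 80.6 CPM. It rose by 0.24 ± 0.082 (adjusted p = 0.0228) in Msi1 knockdown cells, where library 1 overlapped control, and by 0.27 ± 0.081 (adjusted p = 0.0157) in Msi2 knockdown cells, where all libraries were above control. The first call ended without Msi1 knockdown library 2 (adjusted p = 0.119) or 3 (0.0593) or control library 1 (0.0871) or 3 (0.0715), and the second without Msi2 knockdown library 2 (0.0808), control library 1 (0.086) or 3 (0.0665), or with thinned libraries (0.0568).

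ABCC5, another exporter of cyclic nucleotides, had 152, 189.8 and 189 CPM in Msi1 knockdown cells and 141, 162 and 122 CPM in Msi2 knockdown cells. Levels in double knockdown cells were 106, 108 and 116 CPM, and those in control 133, 161 and 131 CPM. It fell in double knockdown cells by -0.37 ± 0.11 (adjusted p = 0.00817), with no overlap, and ABCC10, which carries lipophilic anions, fell there by -0.35 ± 0.094 (adjusted p = 0.00401), to 25.1, 24.4 and 27.03 CPM against 31.8, 34.97 and 30.1 CPM in control. The rise of ABCC5 in Msi1 knockdown cells, 0.32 ± 0.11 (adjusted p = 0.0233), overlapped control and ended without Msi1 knockdown library 2 (0.0786) or 3 (0.0621) or control library 1 (0.0733) or 3 (0.0705). Summed over the 12 pumps, levels were 571 ± 62.4 CPM in Msi1 knockdown cells, 446 ± 53.4 in Msi2 knockdown cells, 359.6 ± 10.7 in double knockdown cells and 447 ± 40.2 in control (SD, n = 3). The promoter of ABCC2 is shown because ABCC2 rose in Msi1 knockdown cells and fell in Msi2 knockdown cells. It is the 250 bases before the start on the plus strand of GRCh38.p14 (chr10:99782390-99782639), with a TATAAA match in capitals.
ABCC2: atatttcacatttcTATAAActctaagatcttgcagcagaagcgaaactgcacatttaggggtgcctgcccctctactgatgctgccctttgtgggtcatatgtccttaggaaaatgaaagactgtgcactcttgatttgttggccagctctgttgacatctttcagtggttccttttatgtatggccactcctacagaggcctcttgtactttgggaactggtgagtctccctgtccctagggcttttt
That match begins 236 bases before the start, and none of the other motifs was found in this window, including the antioxidant response core TGACNNNGC, which occurs in 11.03% of all promoters and in 6 of the 36 members.

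**Figure D3:**
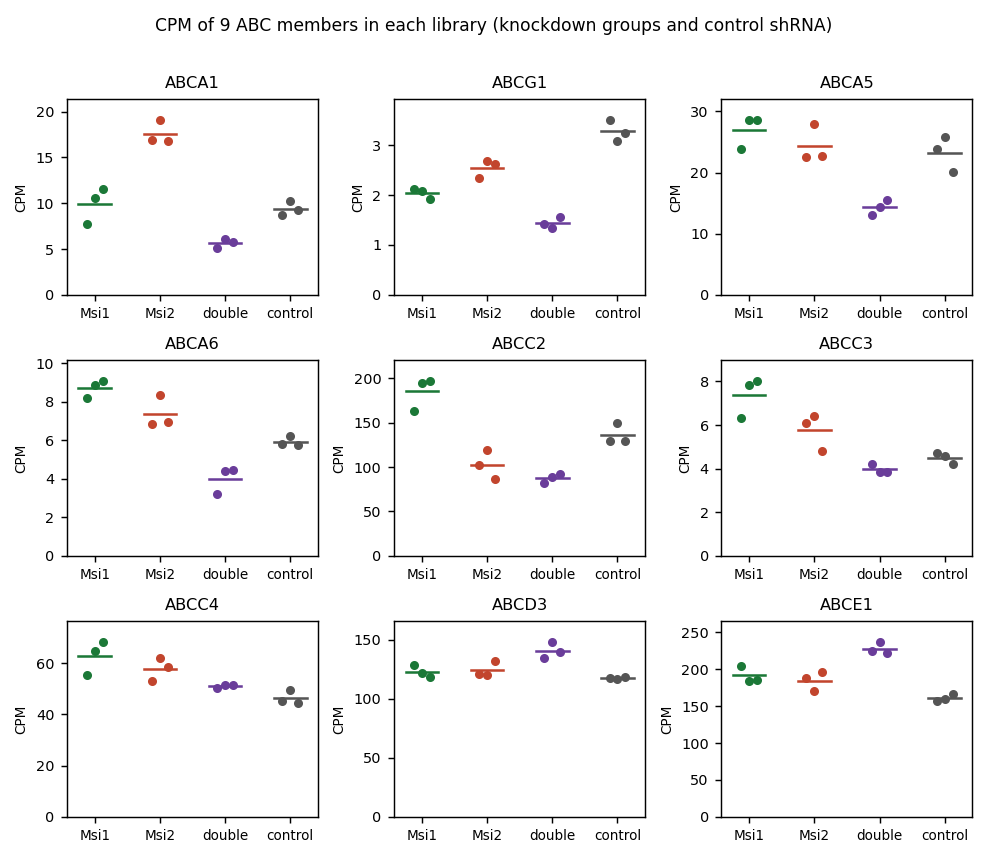
CPM of 9 ABC members in each library (points, 3 a group) with the group mean (line), for the Msi1, Msi2 and double knockdown and control, on linear axes from 0. ABCA1 is highest in Msi2 knockdown cells and lowest in double knockdown cells, ABCC2 and ABCC3 are highest in Msi1 knockdown cells, and ABCE1 is highest in double knockdown cells at 222 to 237 CPM.

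The channel and channel-regulator members comprise CFTR and the sulfonylurea receptors ABCC8 and ABCC9, which gate potassium channels. ABCC9 had 7.19, 8.23 and 8.24 CPM in Msi1 knockdown cells and 5.82, 6.01 and 5.14 CPM in Msi2 knockdown cells. With both shRNAs it had 4.66, 6.04 and 5.47 CPM, and with the scrambled one 6.61, 7.72 and 5.21 CPM. The Msi2 and double knockdown libraries were all below the Msi1 knockdown libraries, and each knockdown group overlapped control. ABCC9 fell in double knockdown cells by -0.33 ± 0.13 (adjusted p = 0.0378). That call ended in 9 alternatives, among them the fits without control library 1 (adjusted p = 0.0735) or 2 (0.237, at -0.21) and without double knockdown library 1 (0.197) or 3 (0.0518). ABCC8 fell in double knockdown cells by -0.82 ± 0.29 (adjusted p = 0.0224), at 0.357, 0.2995 and 0.466 CPM against 0.617, 0.755 and 0.539 CPM in control, which is 13 to 19 counts against 6 to 23. ABCC8 lies outside the rule for named genes and was chosen after its values were seen, as was this comparison of ABCC9.

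The mitochondrial and lysosomal dimeric transporters comprise 5 members, all tested. In the Msi1 knockdown 2 rose, in Msi2 knockdown cells 1 fell and in double knockdown cells 2 fell. Of all tested genes, 18.5% rose in the Msi1 knockdown, 13.6% fell in the Msi2 knockdown and 25.3% fell in the double knockdown. ABCB9, which carries peptides into lysosomes, had 16.2, 18.9 and 16.7 CPM in Msi1 knockdown cells and 12.2, 13.2 and 12.4 CPM in Msi2 knockdown cells. In double knockdown cells it had 13.2, 13.2 and 13.6 CPM, against 11.7, 13.7 and 13.2 CPM in control cells. It rose in Msi1 knockdown cells by 0.44 ± 0.084 (adjusted p = 0.000336), with no overlap, while the other groups overlapped control. ABCB6, a porphyrin transporter, had 21.3, 26.96 and 25.3 CPM in Msi1 knockdown cells and 18.02, 22.98 and 17.8 CPM in Msi2 knockdown cells. Its double knockdown libraries had 16.1, 17.99 and 16.5 CPM, against 23.1, 26.3 and 21.6 CPM in control. It fell in double knockdown cells by -0.50 ± 0.11 (adjusted p = 0.000621), with no overlap. In the Msi2 knockdown its fall of -0.28 ± 0.10 (adjusted p = 0.0468) overlapped control and ended without Msi2 knockdown library 1 (adjusted p = 0.162) or 3 (0.164), double knockdown library 1 (0.0636) or control library 1 (0.0696) or 2 (0.194), and with length offsets (0.0654). ABCB10, of the inner mitochondrial membrane, fell in double knockdown cells by -0.21 ± 0.071 (adjusted p = 0.018), a call that ended without double knockdown library 1 (0.0914) or control library 2 (0.0845). ABCB8, also mitochondrial, rose in Msi1 knockdown cells by 0.29 ± 0.11 (adjusted p = 0.0452), with overlap. ABCB8 and the comparison of ABCB10 with control were described after their values were seen.

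Among the class D dimeric transporters, ABCD3 and ABCD4 moved in opposite directions in double knockdown cells. ABCD3, the most abundant of this class, which handles branched-chain and bile acid precursors, had 129, 122 and 118 CPM in Msi1 knockdown cells and 121, 119.7 and 132 CPM in Msi2 knockdown cells. Double knockdown libraries were at 135, 148 and 139 CPM and control libraries at 117, 117 and 118 CPM. It rose in double knockdown cells by 0.26 ± 0.060 (adjusted p = 0.00133), with no overlap. ABCD4, which acts in lysosomal cobalamin release, fell in double knockdown cells by -0.38 ± 0.092 (adjusted p = 0.00181), to 37.03, 34.9 and 35.9 CPM against 45.6, 51.8 and 42.3 CPM in control. ABCD2 was at 0 throughout.

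Of the 4 soluble members of classes E and F, 3 rose in double knockdown cells, and these were the 3 most abundant members per kilobase over all libraries. In the same comparison 26.6% of all tested genes rose. ABCE1 had 205, 184 and 186 CPM in Msi1 knockdown cells and 188, 170.1 and 196 CPM in Msi2 knockdown cells. Levels in double knockdown cells were 224, 237 and 222 CPM, and those in control 158, 159.7 and 166 CPM. All knockdown libraries were above all control libraries, and the double knockdown was above both single knockdowns. ABCE1 rose by 0.25 ± 0.066 (adjusted p = 0.00515) in Msi1 knockdown cells, 0.20 ± 0.066 (adjusted p = 0.0287) in Msi2 knockdown cells and 0.50 ± 0.066 (adjusted p = 4.64e-06) in double knockdown cells, where the ratio to control was 1.42. The call in Msi2 knockdown cells ended in 7 of the 12 fits that left out a library, with adjusted p of 0.0509 to 0.153, the last without control library 1 and followed by 0.114 and 0.11 without Msi2 knockdown libraries 3 and 1 and 0.0956 without control library 2; the other 3 were Msi1 knockdown library 3 (0.051) and double knockdown libraries 2 (0.0509) and 3 (0.0545).

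ABCF1, which binds initiation factor eIF2 and ribosomes, had 108, 96.9 and 94.4 CPM in Msi1 knockdown cells and 114, 106 and 117 CPM in Msi2 knockdown cells. With both shRNAs it had 135, 126 and 122 CPM, and with the scrambled one 108, 96.9 and 96.7 CPM. It rose by 0.34 ± 0.068 (adjusted p = 0.000382) in double knockdown cells, with no overlap, and its changes in the single knockdowns did not pass (-0.017 ± 0.069 in the Msi1 and 0.16 ± 0.068 in Msi2 knockdown cells). ABCF2 had 136, 124 and 133 CPM in Msi1 knockdown cells and 129, 116 and 124 CPM in Msi2 knockdown cells. In double knockdown cells it had 156, 149 and 149.8 CPM, against 131, 121 and 119.6 CPM in control cells. It rose in double knockdown cells by 0.29 ± 0.062 (adjusted p = 0.000632), and its changes in the Msi1 (0.080 ± 0.062) and Msi2 (-0.0076 ± 0.062) knockdown did not pass. ABCF3, a relative of yeast Gcn20, had 60.6, 58.8 and 58.7 CPM in Msi1 knockdown cells and 61.8, 62.8 and 59.6 CPM in Msi2 knockdown cells. Its double knockdown libraries had 64.1, 60.7 and 59.03 CPM, against 69.2, 67.6 and 68.9 CPM in control. All 9 knockdown libraries were below all 3 control libraries, with log2 changes of -0.21 ± 0.056 (adjusted p = 0.00608) in Msi1 knockdown cells, -0.16 ± 0.056 (adjusted p = 0.0357) in Msi2 knockdown cells and -0.16 ± 0.056 (adjusted p = 0.0205) in double knockdown cells. The call in Msi2 knockdown cells ended without Msi2 knockdown library 1 (0.0711) or 3 (0.116), without control library 1 (0.0923) or 3 (0.0699), with no low-count filter (0.103) and with only the compared groups (0.0638). That in double knockdown cells ended without double knockdown library 3 (0.0674) or control library 1 (0.0649) and with no low-count filter (0.0653), and with length offsets its log2 change was -0.26 (adjusted p = 0.000304). Summed over classes E and F, levels were 481 ± 24.6 CPM in Msi1 knockdown cells, 482 ± 22.9 in Msi2 knockdown cells, 568 ± 13.6 in double knockdown cells and 454 ± 10.8 in control (SD, n = 3).

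ABCE1 had the smallest adjusted p of the 5 rises in double knockdown cells, and its promoter is shown beside that contrast with the falling class A genes. It is the 250 bases before the start on the plus strand of GRCh38.p14 (chr4:145098061-145098310), and it has no capitals, because none of the 6 motifs searched (the nuclear receptor core, E-box, GC box, CCAAT box, antioxidant response core and TATA box given above, on both strands) was found in it.
ABCE1: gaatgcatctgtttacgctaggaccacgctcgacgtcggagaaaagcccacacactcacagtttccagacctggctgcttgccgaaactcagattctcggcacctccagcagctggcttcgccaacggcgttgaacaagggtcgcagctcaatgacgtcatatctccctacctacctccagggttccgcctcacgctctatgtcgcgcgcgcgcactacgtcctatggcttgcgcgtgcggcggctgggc
The absence of these letters from this window says nothing about any factor. The GC box lies in 18 of the 36 members' promoters, those of ABCA1, ABCF1 and ABCF2 among them.

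Against the single knockdowns, the double knockdown had more falls than rises among the members. Against the Msi1 knockdown, 6 members rose and 22 fell of 36 (16.7% and 61.1%), where 29.9% of all tested genes rose and 26.2% fell, and the members' median log2 change was -0.39. The 5 with the smallest p were ABCC2 (-1.08 ± 0.10 (adjusted p = 7.48e-07)), ABCA6 (-1.13 ± 0.12 (adjusted p = 1.42e-06)), ABCA5 (-0.92 ± 0.10 (adjusted p = 2.45e-06)), ABCC3 (-0.89 ± 0.12 (adjusted p = 1.28e-05)) and ABCA8 (-0.49 ± 0.073 (adjusted p = 2.97e-05)), all lower. Against the Msi2 knockdown, 4 members rose and 17 fell (11.1% and 47.2%), where 22.7% of all genes rose and 22.5% fell, and the median was -0.25. The 5 with the smallest p were ABCA1 (-1.65 ± 0.12 (adjusted p = 8.34e-09)), ABCA5 (-0.78 ± 0.10 (adjusted p = 1.04e-05)), ABCA6 (-0.89 ± 0.12 (adjusted p = 1.07e-05)), ABCG1 (-0.84 ± 0.14 (adjusted p = 8.76e-05)) and ABCA7 (-0.73 ± 0.11 (adjusted p = 9.45e-05)), again all lower. ABCE1 rose in double knockdown cells against both, by 0.25 ± 0.065 (adjusted p = 0.00325) over the Msi1 and 0.30 ± 0.065 (adjusted p = 0.000979) over the Msi2 knockdown. These comparisons share the double knockdown libraries.

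The single knockdowns differed from each other in 14 of 36 members. In the Msi2 knockdown against the Msi1 knockdown 5 members rose (13.9%) and 9 fell (25%), beside 22.3% and 18.9% of all tested genes, with a median of -0.072. The 5 with the smallest p were ABCC2 (-0.85 ± 0.1 (adjusted p = 2.81e-06)), ABCA1 (0.83 ± 0.11 (adjusted p = 8.03e-06)), ABCB9 (-0.46 ± 0.078 (adjusted p = 0.000116)), ABCB10 (0.30 ± 0.069 (adjusted p = 0.00167)) and ABCC9 (-0.48 ± 0.12 (adjusted p = 0.00301)). ABCA1 and ABCB10 were the higher ones in Msi2 knockdown cells. The call of ABCB10 ended with thinned libraries (adjusted p = 0.0542). The number of members called was 7 without Msi1 knockdown library 2 and 7 without Msi2 knockdown library 3.

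Non-additivity is how far the double knockdown's log2 change departs from adding up the single knockdowns' log2 changes, each taken against control. Of the 36 members, 17 lay below that sum and 1 lay above it (47.2% and 2.78%), where 19.1% of all tested genes lay below and 21.3% above, and the median difference was -0.38 over the members and 0.0082 over all genes. The 5 with the smallest p were ABCA1 (-1.72 ± 0.17 (adjusted p = 1.63e-06)), ABCA6 (-1.44 ± 0.17 (adjusted p = 9.45e-06)), ABCC3 (-1.22 ± 0.18 (adjusted p = 5.93e-05)), ABCA5 (-0.97 ± 0.14 (adjusted p = 8.86e-05)) and ABCC4 (-0.61 ± 0.11 (adjusted p = 0.000328)). ABCG1, the member that fell most in double knockdown cells, was at -0.15 ± 0.20 (adjusted p = 0.553), and ABCE1 at 0.053 ± 0.093 (adjusted p = 0.673), so no departure from the sum was detected for either. The control libraries enter this difference 3 times, and it is not independent of the comparisons above.

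**Figure D4:**
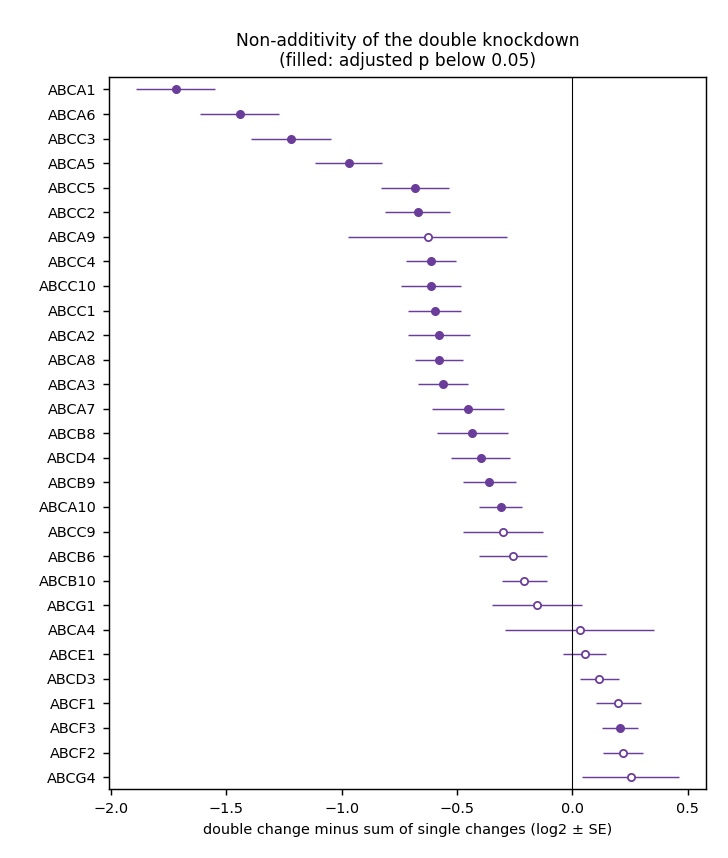
Departure of the double knockdown's log2 change from the added single-knockdown changes, ± SE, for 29 tested members with at least 1 CPM in a group mean, sorted. Filled points passed at an adjusted p below 0.05. ABCA1 is lowest at -1.72, and the points right of 0 are mostly members of classes D, E, F and G.

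Genes that work with the transporters were measured in the same fits, in lists that were chosen with earlier results of these data known. Of 22 tested genes of sterol sensing and traffic, 8 rose and 8 fell in Msi1 knockdown cells, 11 rose and 3 fell in Msi2 knockdown cells, and 6 rose and 8 fell in double knockdown cells, with median log2 changes of -0.050, 0.18 and -0.0099. These were 36.4% and 36.4%, 50% and 13.6%, and 27.3% and 36.4% of the list, where 18.5% and 20.9%, 16.7% and 13.6%, and 26.6% and 25.3% of all tested genes rose and fell in the same comparisons. SREBF2, the regulator of sterol synthesis, rose in Msi2 knockdown cells by 0.35 ± 0.065 (adjusted p = 0.000452) and was not called in the Msi1 (-0.082 ± 0.065 (adjusted p = 0.336)) or the double knockdown (0.069 ± 0.065 (adjusted p = 0.389)). NR1H2 and NR1H3 encode LXR-beta and LXR-alpha, the sterol-sensing receptors known to drive ABCA1 and ABCG1. NR1H2 rose by 0.21 ± 0.073 (adjusted p = 0.0346) in the Msi2 and 0.47 ± 0.072 (adjusted p = 2.68e-05) in double knockdown cells and was at 0.14 ± 0.074 (adjusted p = 0.141) in Msi1 knockdown cells. NR1H3 fell by -0.39 ± 0.12 (adjusted p = 0.0157) in the Msi1 and -0.41 ± 0.12 (adjusted p = 0.00661) in double knockdown cells and was at -0.13 ± 0.12 (adjusted p = 0.428) in Msi2 knockdown cells. CAV1, the coat protein of caveolae, fell by -0.76 ± 0.068 (adjusted p = 1.2e-07) in the Msi2 and -0.66 ± 0.068 (adjusted p = 2.55e-07) in double knockdown cells.

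Of 18 tested genes of ribosome recycling and eIF2, the partners of ABCE1 and ABCF1, 2 rose and 3 fell in Msi1 knockdown cells, 4 rose and 2 fell in Msi2 knockdown cells, and 12 rose and 1 fell in double knockdown cells, where the median log2 change was 0.30. In the double knockdown these were 66.7% and 5.56% of the list, beside 26.6% and 25.3% of all tested genes. In the Msi1 knockdown they were 11.1% and 16.7%, beside 18.5% and 20.9% of all tested genes. In the Msi2 knockdown they were 22.2% and 11.1%, beside 16.7% and 13.6%. The 3 with the smallest p in double knockdown cells were ZNF598, a sensor of collided ribosomes (0.54 ± 0.073 (adjusted p = 5.53e-06)), GSPT1, the release factor eRF3 (0.44 ± 0.064 (adjusted p = 1.44e-05)), and EIF2S1, the alpha subunit of eIF2 (0.48 ± 0.073 (adjusted p = 2.52e-05)). Of 23 drug metabolism genes, 6 rose and 4 fell in the Msi1, 3 rose and 4 fell in the Msi2, and 7 rose and 3 fell in double knockdown cells. The rises were 26.1%, 13% and 30.4% of this list, beside 18.5%, 16.7% and 26.6% of all tested genes, and the falls 17.4%, 17.4% and 13%, beside 20.9%, 13.6% and 25.3%. NQO1, a quinone reductase, fell by -0.66 ± 0.085 (adjusted p = 5.04e-06) in Msi1 knockdown cells, and MGST1, a membrane glutathione transferase, rose there by 0.50 ± 0.066 (adjusted p = 5.74e-06). Of 23 peroxisome genes, none rose and 9 fell in Msi1 knockdown cells, 5 rose and 2 fell in the Msi2, and 6 rose and 5 fell in double knockdown cells. The falls were 39.1%, 8.7% and 21.7% of this list, beside 20.9%, 13.6% and 25.3% of all tested genes, and the rises 0%, 21.7% and 26.1%, beside 18.5%, 16.7% and 26.6%.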

How the data were processed

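The authors deposited estimated counts per gene as whole numbers with no scaling. Per the submitters' processing notes, kallisto 0.42.1, CASAVA 1.4 and hg19 were used, in roles that the notes do not give. The transcript set, strand and filters are not stated there. The counts were tested in R 4.3.3 with edgeR 4.0.16 as deposited: filterByExpr with a minimum count of 10, TMM factors, 1 robust quasi-likelihood fit of all 12 libraries with a mean per group (8 residual degrees of freedom), two-sided, adjusted over 15021 genes by the Benjamini-Hochberg method at 0.05. Each standard error was the log2 change over the root of its F statistic. The scripts were tested on simulated data first. Groups came from the sample titles. Total counts ran from 10.9 to 56.1 (in 1e6) per library, and the smallest total sets the widest counting error.

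The members and gene lists were chosen with earlier results of these data known. Members named in the comparisons with control were those called at 1 CPM or more in either group mean and without overlap (at most 15 a comparison), the 5 of smallest p in the other comparisons, the 5 highest per kilobase, and ABCA1, ABCG1, ABCB1, ABCC1, ABCG2 and CFTR. From each partner list, up to 3 called genes of smallest p could be named, with NR1H2, NR1H3 and SREBF2. Some genes that these rules cover are not reported here by name. Lengths are those of the longest GENCODE 29 transcript, which 99.2% of tested genes had. Promoters are from RefSeq (GRCh38.p14), and motifs were searched on both strands. Alternatives were DESeq2 1.42.0 (size factors or its Wald test), no or a stricter filter (50 counts in 3 libraries), only the compared groups, a replicate block, libraries thinned to 10948191 counts, length offsets from lowess curves, and each library left out.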

Additional observations from a re-analysis of the deposited data

Results flagged for a closer look

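Results were listed here where 2 effects under the same contrast differed by a test of the difference itself, the non-additivity of the double knockdown in edgeR (adjusted over all tested genes, n = 3 libraries a group). Of the ABC members, 18 met this, and 17 of them lay below the sum of the single changes. All values are log2 differences ± SE. ABCA1 was at -1.72 ± 0.17 (adjusted p = 1.63e-06), ABCA6 at -1.44 ± 0.17 (adjusted p = 9.45e-06), ABCC3 at -1.22 ± 0.18 (adjusted p = 5.93e-05) and ABCA5 at -0.97 ± 0.14 (adjusted p = 8.86e-05). Each of these 4 had a single-knockdown change above 0 and a double-knockdown change below 0. Not all of these changes passed: the double-knockdown change of ABCC3 and the single-knockdown changes of ABCA5 did not. Among the efflux pumps, ABCC5 was at -0.68 ± 0.15 (adjusted p = 0.00216), ABCC2 at -0.67 ± 0.14 (adjusted p = 0.00162), ABCC4 at -0.61 ± 0.11 (adjusted p = 0.000328), ABCC10 at -0.61 ± 0.13 (adjusted p = 0.00144) and ABCC1 at -0.60 ± 0.11 (adjusted p = 0.00068). Among the remaining class A members, ABCA2 was at -0.58 ± 0.13 (adjusted p = 0.0029), ABCA8 at -0.58 ± 0.10 (adjusted p = 0.00043), ABCA3 at -0.56 ± 0.11 (adjusted p = 0.000671), ABCA7 at -0.45 ± 0.16 (adjusted p = 0.0305) and ABCA10 at -0.31 ± 0.095 (adjusted p = 0.014). Among the dimeric transporters, ABCB8 was at -0.43 ± 0.15 (adjusted p = 0.0311), ABCD4 at -0.40 ± 0.13 (adjusted p = 0.0191) and ABCB9 at -0.36 ± 0.11 (adjusted p = 0.0179). ABCF3 alone lay above the sum, at 0.21 ± 0.078 (adjusted p = 0.0423).

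Of these 18 calls, 5 ended in a fit that left out 1 library. Without control library 1 the adjusted p was 0.0542 for ABCA10, 0.0662 for ABCA7, 0.0648 for ABCB8, 0.0814 for ABCB9 and 0.0877 for ABCF3. The call of ABCB9 also ended without Msi1 knockdown library 2 (0.0644) and with libraries thinned to 1 depth (0.0514). That of ABCA7 also ended without Msi1 knockdown library 2 (0.0632) or 3 (0.0583), Msi2 knockdown library 2 (0.0558), double knockdown library 1 (0.0552) or 2 (0.0544) or control library 3 (0.0555), and with length offsets (0.0585). That of ABCB8 also ended without Msi1 knockdown library 2 (0.071) or 3 (0.064), Msi2 knockdown library 2 (0.0681), double knockdown library 2 (0.0545) or control library 3 (0.059). The call of ABCF3 ended in 16 of the alternatives tried, with adjusted p from 0.051 to 0.172. Groups of 3 libraries were not examined for single outlying values. The transcript-length slope given beside the double knockdown moves with this contrast too, and with length offsets 16 members were called. The share of all tested genes called with these offsets is not given here.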

How the results depend on the processing

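No call on a named ABC member turned round under any alternative tried. The calls against control of ABCA2 and ABCC8 in the double knockdown and ABCB8 in the Msi1 knockdown were followed only with length offsets. Of 4512 values of named genes recomputed, 4217 kept their direction and their side of the threshold, 194 no longer passed, 61 newly passed and 40 changed sign, none of the 40 being called before or after. Leaving out each library gave 9 to 17 members called with Msi1 knocked down, 6 to 13 with Msi2, 17 to 23 in the double knockdown, 23 to 29 in the double against the Msi1, 16 to 22 in the double against the Msi2, 7 to 19 in the Msi2 against the Msi1 knockdown and 14 to 22 in non-additivity. Other alternatives kept every count within 1.5 times. Many values that changed sign lay near 0, but those of ABCA9 and ABCG2, both at low counts, moved over the wider ranges given below. In the Msi2 knockdown ABCA10 was at -0.0086 with DESeq2 size factors, -0.0088 under DESeq2, -0.013 with the stricter filter, -0.0054 with only the compared groups, -0.015 with length offsets and -0.016 with these and the replicate block; without the filter ABCC5 was at 0.0058 and ABCF2 at 0.00026. ABCF1 in the Msi1 knockdown was at 0.014 in thinned libraries, and ABCA3 in the double knockdown at 0.030 with length offsets and 0.031 with the block added. With a library left out, log2 changes in the Msi1 knockdown ran from -0.077 to 0.048 (ABCF1), -0.034 to 0.13 (ABCB6) and -0.033 to 0.23 (ABCA1). In the Msi2 knockdown they ran from -0.038 to 0.059 (ABCA10), -0.12 to 0.10 (ABCC5), -0.043 to 0.027 (ABCF2), -0.066 to 0.12 (ABCA5), -0.049 to 0.16 (ABCC10), -0.21 to 0.0087 (ABCD4), -0.12 to 0.32 (ABCG2), -0.59 to 0.038 (ABCA9) and -0.11 to 0.035 (ABCB9), and in the double knockdown from -0.53 to 0.084 (ABCG2) and -0.020 to 0.11 (ABCB9). The cause of these shifts was not tested.

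Whether replicate numbers pair the libraries is not settled by these data. Same-numbered libraries correlated at -0.117 to 0.302 in their deviations, 5 of 18 pairs above 0.1, and other-numbered libraries at -0.332 to 0.289. Of 12 libraries, 0 correlated best with their own number in every other group, a strict condition. With the number as a replicate block, 15 members were called in the Msi1 knockdown, 14 in the Msi2, 24 in the double knockdown, 29 in the double against the Msi1, 24 in the double against the Msi2, 17 in the Msi2 against the Msi1 knockdown and 20 in non-additivity, with no call ended. Each of these counts was above that of the fit without the block. Levels per kilobase ranked alike by coding length (Spearman rho = 0.992 over 36 members), an alternative chosen after seeing the data in place of protein lengths, which were not used here; the block with length offsets was also added then. At 10.9 (1e6 counts), control library 3 limits the members under 1 CPM.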

Other observations

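Genes of haem synthesis and iron-sulfur assembly, the partners of the mitochondrial ABC dimeric transporters, were measured in the same fits. Of 24 tested, 5 rose and 9 fell in Msi1 knockdown cells, 4 rose and 5 fell in Msi2 knockdown cells, and 11 rose and 6 fell in double knockdown cells. The rises were 20.8%, 16.7% and 45.8% of the list, beside 18.5%, 16.7% and 26.6% of all tested genes, and the falls 37.5%, 20.8% and 25%, beside 20.9%, 13.6% and 25.3%. ALAS1, the first enzyme of haem synthesis, averaged 139.6 ± 3.69 CPM in double knockdown cells and 95.2 ± 6.89 CPM in control (SD, n = 3), a log2 change of 0.56 ± 0.067 (edgeR adjusted p = 1.52e-06). CPOX, which acts late in haem synthesis, averaged 23.8 ± 0.348 CPM in Msi1 knockdown cells and 37.8 ± 1.001 CPM in control, a log2 change of -0.67 ± 0.062 (adjusted p = 7.92e-08).

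TAP1 and TAP2, the peptide-loading transporters that the family rule leaves out, both rose in Msi1 knockdown cells. TAP2 averaged 112 ± 10.6 CPM in Msi1 knockdown cells and 65.8 ± 5.28 CPM in control, a log2 change of 0.77 ± 0.078 (adjusted p = 2.34e-07). Of 4 peptide-loading genes, 2 rose in Msi1 knockdown cells, 2 rose in Msi2 knockdown cells, and 1 rose and 2 fell in double knockdown cells (50%, 50% and 25% of the list rose, beside 18.5%, 16.7% and 26.6% of all tested genes). The falls were 0%, 0% and 50% of this list, beside 20.9%, 13.6% and 25.3% of all tested genes. Both rises in Msi2 knockdown cells ended without control library 1 (adjusted p = 0.0995 for TAP1 and 0.159 for TAP2) or 3 (0.0828 and 0.138). Those of TAP1 and TAP2 ended in 4 and 6 alternatives in all, and the fall of TAPBPL in double knockdown cells ended in 3, with adjusted p up to 0.132.

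Among pseudogene entries of the family, ABCA11P had 23 to 149 counts per library, ABCA17P 17 to 59, ABCC6P2 9 to 32 and ABCC13 0 to 4. Summed levels of 6 fibroblast markers, carried by COL1A2 and COL3A1 while the other 4 stayed at or under 1.84 CPM, were 659.5 to 804 CPM in Msi1 knockdown cells, 775 to 887 in Msi2 knockdown cells, 549 to 642 in double knockdown cells and 603 to 738 in control.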
